A study of Drosophila melanogaster with 2 samples.

Results

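The peaks described here are the binding regions of Dmrt99B-eGFP on the X chromosome. They are the 1573 rows placed on X in the authors' thresholded peak list. That list keeps peaks by their irreproducible discovery rate (IDR). The rate scores how far the ranking of a peak repeats between sets of peaks, such as those of replicates. The X peaks make up 20.1% of the 7838 peaks of that list. The measure was chromatin immunoprecipitation followed by sequencing in whole Drosophila melanogaster embryos of pooled sexes, collected from 6 to 16 hours of age. All embryos came from a stable transgenic line that makes Dmrt99B with a C-terminal GFP; which promoter drives the fusion is not stated in the labels. The labels state in 1 place that the antibody was against GFP and in another name dmrt99B, and they list a control experiment that is not analysed here. There was 1 group with 2 biological replicates, numbered 3 and 4, so the comparison was between chromosomes: X against the 4940 peaks of the autosomal arms 2L, 3L and 3R together. Whole embryos hold many cell types of both sexes, and peak lists carry no expression values with which to check them. The depth behind each peak is unknown, since no read totals were at hand.

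Dmrt99B belongs to the DM-domain family of transcription factors, named after doublesex and mab-3, members of which direct sexual differentiation in many animals. In flies the X is present in 1 copy in males and in a pair in females, and the male X is transcribed at a raised rate by a protein and RNA complex that coats it. Most X-linked genes have no role in sex, and the chromosome carries housekeeping, neural and developmental genes as the autosomes do.

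Summit windows give a view of what was recovered. The windows below are from the plus strand of X in release 6 (dm6) coordinates, as RefSeq gives it, and run 100 bp to either side of the summit, except that annotated UTR bases were left out at Ugalt. The first 4 come from the strongest peaks of X and are shown because they hold neither of the 7-mers described later. The last 4 are the strongest windows on X with ACAGTGG in 2 copies (NFAT), with 1 CAGTGTA (Tlk), with both 7-mers (CG17896) and with 2 copies of CAGTGTA (Hexo2). Capitals mark matches to CAGTGTA or ACAGTGG on either strand.
Ugalt promoter, chrX:2703853-2703980: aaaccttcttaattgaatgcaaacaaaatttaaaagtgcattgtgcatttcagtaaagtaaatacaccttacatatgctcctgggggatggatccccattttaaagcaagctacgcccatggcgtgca
ph-p promoter, chrX:2137213-2137413: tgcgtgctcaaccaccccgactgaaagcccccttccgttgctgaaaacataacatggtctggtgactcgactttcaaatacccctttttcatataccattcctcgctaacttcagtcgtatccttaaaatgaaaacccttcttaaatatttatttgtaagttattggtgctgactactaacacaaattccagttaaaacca
CG32772 intron, chrX:4910262-4910462: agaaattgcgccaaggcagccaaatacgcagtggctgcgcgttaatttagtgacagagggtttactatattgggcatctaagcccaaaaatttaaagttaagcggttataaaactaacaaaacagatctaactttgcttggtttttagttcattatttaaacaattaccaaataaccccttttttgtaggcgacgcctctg
Gapdh2 promoter, chrX:15867879-15868079: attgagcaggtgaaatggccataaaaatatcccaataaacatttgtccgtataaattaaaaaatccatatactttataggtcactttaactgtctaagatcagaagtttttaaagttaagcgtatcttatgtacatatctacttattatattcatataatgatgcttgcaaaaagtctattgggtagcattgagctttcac
NFAT intron, chrX:13640406-13640606: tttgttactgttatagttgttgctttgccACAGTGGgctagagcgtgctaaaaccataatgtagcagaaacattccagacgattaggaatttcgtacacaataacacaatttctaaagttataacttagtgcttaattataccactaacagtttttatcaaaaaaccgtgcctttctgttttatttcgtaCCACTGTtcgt
Tlk intron, chrX:3742124-3742324: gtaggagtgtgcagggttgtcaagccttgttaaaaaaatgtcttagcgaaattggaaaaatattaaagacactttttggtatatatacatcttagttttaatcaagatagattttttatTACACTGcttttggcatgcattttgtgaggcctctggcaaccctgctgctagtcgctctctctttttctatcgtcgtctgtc
CG17896 intergenic, chrX:493903-494103: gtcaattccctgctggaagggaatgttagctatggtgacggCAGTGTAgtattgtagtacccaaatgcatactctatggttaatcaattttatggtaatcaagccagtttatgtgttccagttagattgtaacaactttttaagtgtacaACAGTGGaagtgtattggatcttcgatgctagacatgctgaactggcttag
Hexo2 promoter, chrX:8709333-8709533: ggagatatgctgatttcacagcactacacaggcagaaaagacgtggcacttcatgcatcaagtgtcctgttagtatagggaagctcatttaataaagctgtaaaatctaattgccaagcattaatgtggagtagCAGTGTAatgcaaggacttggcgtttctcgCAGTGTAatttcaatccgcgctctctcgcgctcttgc

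The strongest peaks on X lay at Ugalt, in lncRNA:Vinr, at ph-p, in CG32772 and at Gapdh2. The signal value is a score of peak strength from the authors' peak calling. It was deposited for both replicates pooled and for each replicate, its scale is not stated, and it is compared here only within a list. At the promoter of Ugalt (FBgn0024994), a carrier of UDP-galactose into the Golgi, the pooled signal value was 9896, with 6842 in replicate 3 and 3073 in replicate 4. This was the highest value of the whole list, on X or elsewhere. The next peak (12750771 to 12751700) fell within an exon of lncRNA:Vinr, a non-coding RNA, closest to the start site of the coding gene CG4004. Its pooled signal value was 8193, with 5720 in replicate 3 and 2320 in replicate 4. Another stood at ph-p (2137085 to 2137663), which encodes a subunit of a Polycomb repressive complex, with 6025 pooled, 4025 in replicate 3 and 2101 in replicate 4. Both replicates thus ranked these peaks near the top, at ranks 2, 4 and 16 of replicate 3 and 1, 4 and 6 of replicate 4.

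The peaks that followed were of both proximal and intronic kind. CG32772 carried the strongest intronic peak (4909948 to 4910630), with signal values of 5587 pooled, 3825 in replicate 3 and 1755 in replicate 4. The promoter peak of Gapdh2, a glycolytic dehydrogenase gene (15867717 to 15868255), had 5557 pooled, 3910 in replicate 3 and 1664 in replicate 4. A further peak of ph-p (4556 pooled) overlapped the first, and its neighbour ph-d carried an intergenic peak 813 bp upstream of the start site (3209 pooled, 2316 in replicate 3 and 892 in replicate 4). The ph genes are near-identical tandem copies, and the treatment of reads that match both is not stated, so the division of signal between them is uncertain.

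The others of the 20 strongest peaks had pooled signal values from 3199 to 4556. Intronic peaks lay in NFAT, a Rel-domain transcription factor (4503 pooled, 3181 in replicate 3, 1332 in replicate 4), in Tlk, a kinase of chromatin assembly (4395, 3174 and 1214 in the same order), and in Raf, the kinase of the MAP kinase cascade (3895, 2715 and 1178). Promoter peaks lay at Atf3, a bZIP factor (4306 pooled), elav, an RNA-binding protein of neurons (3766), bves, a membrane protein with a Popeye domain (3219), and bbx, an HMG-box protein (3199). The peak of gce, a juvenile hormone receptor (3479), lay 546 bp upstream of the nearest gce start site and was a promoter peak by another TSS. The polarity gene baz had its peak in a 5′ UTR (3702 pooled), 18692 bp from the start site of baz nearest to it. CHES-1-like, a forkhead factor, had an intronic peak (3455), as did CG3726 (3664), and the peak of CBP (3241) was in a promoter. A further peak assigned to CG4004 (3639) lay in the promoter of a non-coding RNA. In all, 11 of the 20 summits lay in promoters, that is, no more than 500 bp from any annotated transcription start site (TSS), 6 in introns, and 1 each in a 5′ UTR, an exon of a non-coding RNA and intergenic sequence. Of the 20, 18 were within the 100 strongest peaks of the list and all 20 had a peak in each replicate.

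**Figure D1:**
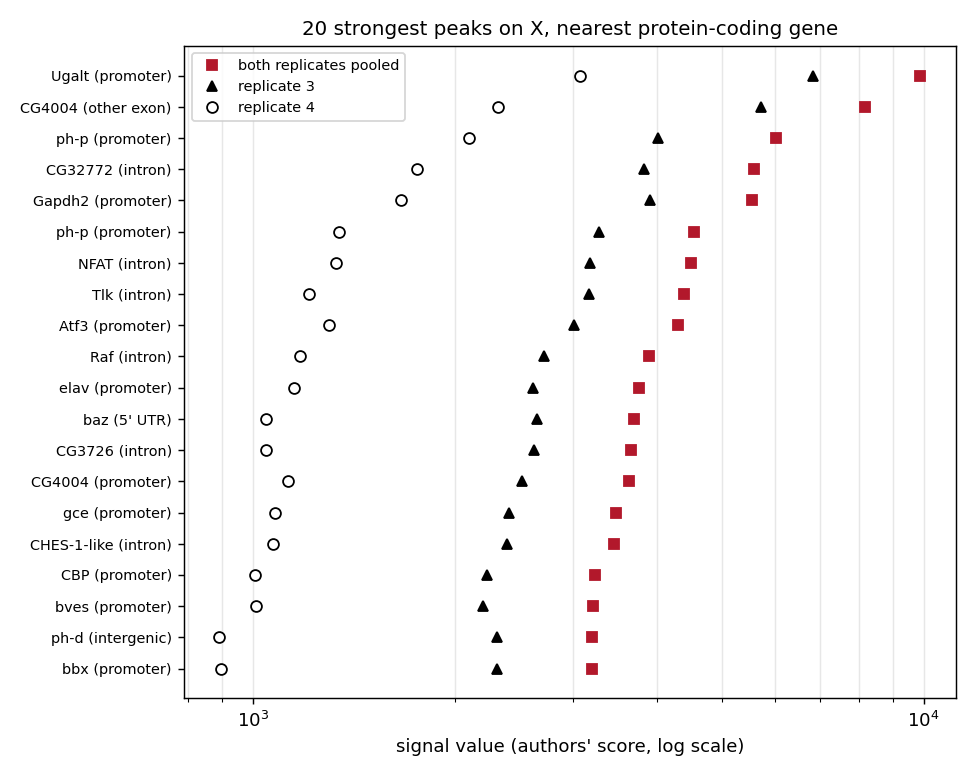
Signal value (authors' score, log scale) of the 20 strongest X peaks, by nearest protein-coding gene and location, with squares for both replicates pooled, triangles for replicate 3 and circles for replicate 4. In every row the pooled value is the highest and that of replicate 4 the lowest, and Ugalt leads in each.

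As a class, X peaks had signal values about as high as those of autosomal peaks. Males carry fewer copies of X than of the autosomes, and the embryos were of pooled sexes. No correction for copy number was made here, and its part in the comparisons of signal and density was not tested. The median signal value was 357 on X (quartiles 235 and 651) and 337 on the autosomal arms (228 and 609), with arm medians from 335 to 341. The top 10% of the list held 163 X peaks, or 10.4% of them (95% Wilson interval 8.95% to 12.0%), against 9.88% of autosomal peaks. The difference was 0.484 percentage points (95% Newcombe interval -1.17 to 2.28), which includes 0, and X lay above 2 of the 3 arms. The weakest X peak stood 230 bp upstream of a TSS of CG8051 with a signal value of 169.5, where the list ends.

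Of the 1573 X peaks, 1544 had a peak of both replicates over the summit (4840 of 4940 on the autosomal arms), which the IDR list selects for. On X 9 lacked one of replicate 3 and 20 lacked one of replicate 4. The median signal value over X peaks was 257 in replicate 3 and 103 in replicate 4, a median ratio of 2.48 (quartiles 2.20 and 2.86), against 2.51 on the autosomal arms. Of the 1559 X peaks among the 7838 strongest of replicate 3, 86.8% had a summit within 200 bp among the strongest of replicate 4. Among the strongest of replicate 4 alone, 1545 lay on X. The relaxed list that the authors called on pooled replicates held 30000 peaks over all arms, as did the list of each replicate. Counts per arm in these lists are therefore shares of the same round total. Of the relaxed pooled peaks, 28.8% of the 5464 on X passed the IDR threshold. The share was 25.4% of the 19472 on the 3 autosomal arms and 26.1% over all arms.

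X carried more IDR peaks per base than each of the 3 autosomal arms. There were 67.0 peaks per Mb of sequenced X and 59.1 per Mb on 2L, 3L and 3R together (62.4, 61.1 and 55.03), a ratio of 1.13 (exact 95% interval 1.07 to 1.20). The excess was larger per gene: X had 71.6 peaks per 100 protein-coding genes and the autosomal arms 56.0 (55.2, 62.4 and 51.6), a ratio of 1.28 (1.21 to 1.35), as X holds fewer genes per Mb (93.5 against 106). The ratio per base was smaller without gene-poor bins. Limited to 500 kb bins with at least 20 genes, it was 1.05 (exact 95% interval 0.995 to 1.12), which includes 1. Within its 30000 peaks the relaxed pooled list showed no excess per base. It had 5464 peaks over 23.5 Mb of X and 19472 over 83.6 Mb of the autosomal arms. In that list 2L (5953 over 23.5 Mb) and 3L (6811 over 28.0 Mb) were denser than X, and 3R (6708 over 32.1 Mb) was less dense. The intervals of these comparisons cover counting error over peaks only, while peaks lie in clusters and come from the same pair of libraries.

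Along X, the density rose and fell between neighbouring 500 kb bins and dropped towards the base of the arm. Over 47 bins the median was 33 summits (quartiles 24 and 44, range 3 to 62), against a median of 29 over 167 autosomal bins (range 0 to 100). In bins with at least 20 genes the median was 34.5 on X and 32 on the autosomal arms. By arm it was 33, 35 and 30 on 2L, 3L and 3R, so that 3L lay above X. The fullest X bin was number 7 (3 to 3.5 Mb) with 62 summits and only 25 protein-coding genes. Its strongest peak (signal value 2514) lay at a start site of dnc, the cAMP phosphodiesterase gene of learning mutants. Bins 14 (58 summits, strongest peak nearest to CG43736), 12 (57, CG3726), 27 (56, MFS10) and 15 (53, CBP) followed. The number of summits was close in each replicate alone, at 62 and 58 in bin 7 and 60 and 65 in bin 14 for replicates 3 and 4.

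The emptiest bins were at the ends of X. Bins 44 to 47, from 21.5 to 23.5 Mb, had 4, 3, 6 and 6 summits, and bin 1 at the left tip had 12. Bin 45 had 31 genes and 3 summits, while bins 44, 46 and 47 had 9, 13 and 15 genes. Bins 44 and 47 were also high in masked repeats, at 38.1% and 40.8% of bases against 21.0% over all of X. The part of repeats in these low counts was not tested. No X bin was empty, whereas 20 of the 167 autosomal bins were, all with 9 or fewer genes. The variance over the mean was 6.87 on X and 10.6 on the autosomal arms. In bins with at least 20 genes it was 5.28 on X and 6.55 on those arms, with 3R (4.37) below X. Across X bins the number of summits followed the number of genes weakly (Pearson r 0.352, Spearman rho 0.281, over 47 neighbouring bins of the same libraries, as a description), and over the 44 bins with at least 20 genes r was 0.107.

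**Figure D2:**
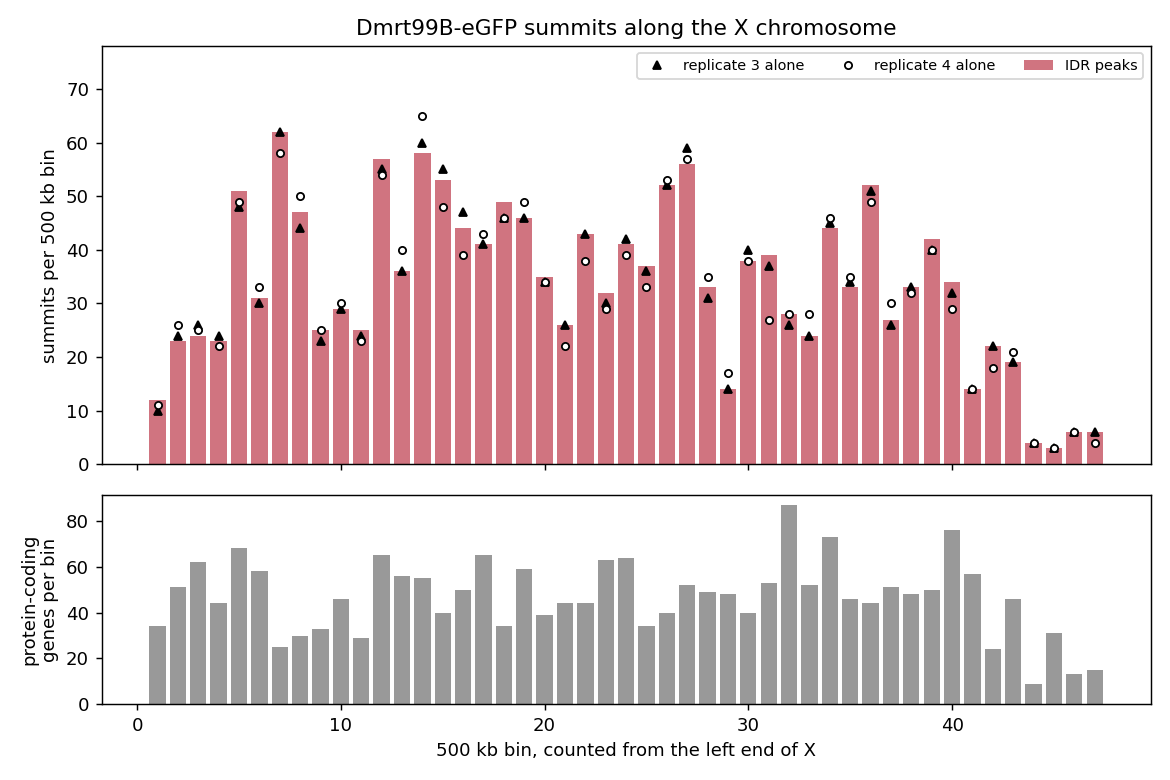
Summits per 500 kb bin along X (upper panel, bars for the IDR list, triangles and circles for the same number of strongest peaks of replicate 3 and replicate 4 alone) above the number of protein-coding genes in each bin (lower panel). Bin 7 holds 62 summits with 25 genes, and bins 44 to 47 at the right end hold 3 to 6.

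Introns set X apart most clearly. Of the X summits, 901 (57.3%, Wilson interval 54.8% to 59.7%) lay in introns, against 44.7% on the autosomal arms (42.1% on 2L, 43.5% on 3L and 48.0% on 3R), a difference of 12.6 percentage points (Newcombe interval 9.76 to 15.4). X sequence is also intronic more often than 2L and 3L, with 43.3% of its bases in introns outside promoters against 36.5%, 37.0% and 43.1% on 2L, 3L and 3R. Per Mb of intron, X had 88.3 summits against 67.3 on the autosomal arms (72.0, 71.5 and 61.2), a ratio of 1.31 (exact 95% interval 1.21 to 1.42), and in bins with at least 20 genes the ratio was 1.16 (1.08 to 1.26). This density was computed after the shares had been seen. The share of bases in introns was nearly equal on X and 3R, and the density per Mb of intron was 88.3 and 61.2 there.

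Intergenic summits were correspondingly fewer on X. They numbered 214 (13.6%), against 23.4% on the autosomal arms, a difference of -9.82 percentage points (Newcombe interval -11.8 to -7.69). Per Mb of intergenic sequence X had 40.3 summits and the autosomal arms 49.3, a ratio of 0.817 (0.703 to 0.946). The strongest intergenic peak was that of ph-d. Promoters held 405 X summits (25.7%) against 29.3%, a difference of -3.52 points (-5.99 to -0.977), but the density per Mb of promoter was 136 on X and 127 on the autosomal arms, a ratio of 1.07 whose interval (0.957 to 1.20) includes 1.

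Exons other than promoters held few summits on X. The 3′ UTRs held 24 (1.53%), against 0.688% on the autosomal arms, a difference of 0.837 points (Newcombe interval 0.270 to 1.60), and the strongest of them lay in stas (signal value 1488). Base shares went the same way, with 5.92% of X and 4.11% of the autosomal arms in 3′ UTRs. Per Mb of 3′ UTR, X still had more summits, at 17.2 against 9.89 on the autosomal arms (8.25, 10.3 and 10.7 on 2L, 3L and 3R), given without an interval. Coding exons held 5 summits on X, led by bif, which encodes a protein of the actin cytoskeleton (545), although 13.9% of X bases are coding outside promoters. Neither coding exons, 5′ UTRs (12 summits) nor exons of other kinds (12 summits) were called different from the autosomal arms, a call being an interval that excludes 0 with X on 1 side of all 3 arms.

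**Figure D3:**
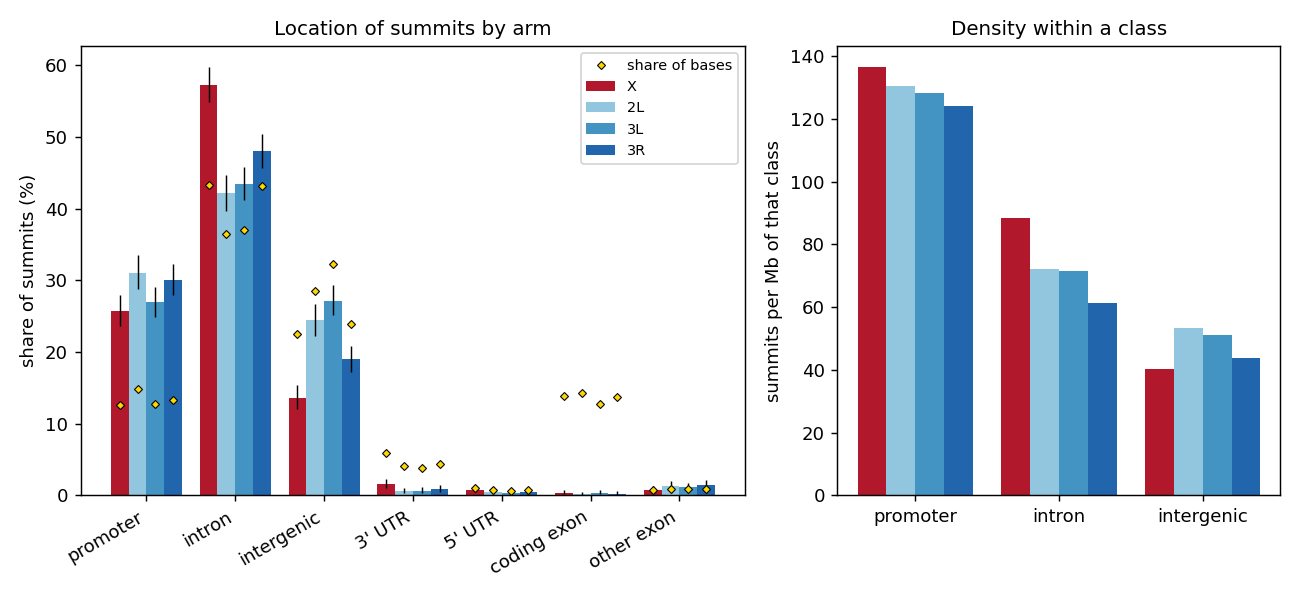
Left, share of summits in each location class by arm, with 95% Wilson intervals as error bars and diamonds for the share of bases of that class. Right, summits per Mb of promoter, intron and intergenic sequence. X reaches 57.3% in introns and 88.3 summits per Mb of intron, above 2L, 3L and 3R, and is lowest in intergenic sequence.

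Within promoters the position of X summits was like that elsewhere. On X, 78.3% of promoter summits lay upstream of the nearest protein-coding TSS, against 79.1% on the autosomal arms. The median offset from that TSS was -178 bp (quartiles -275 and -32) on X and -143 bp on the autosomal arms. Promoters were more common among strong X peaks, at 36.5% of the strongest 394 by signal value and 24.2%, 20.9% and 21.4% of the next sets of 393. Over all X summits the median distance to the nearest protein-coding TSS was 2265 bp, and 14.7% were over 10 kb away, against 18.7% of autosomal summits.

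The spacing of X summits was close to that of autosomal summits. The distance from a summit to the next had a median of 5109 bp on X (quartiles 1738 and 16183) and 5391 bp on the autosomal arms, and 49.2% and 48.2% of summits had the next within 5 kb, a difference of 0.989 points whose Newcombe interval (-1.84 to 3.82) includes 0. In the 3919 strongest peaks of the list the difference was 5.08 points (1.36 to 8.88) and was called. Runs joined by gaps of up to 5 kb with 5 or more summits held 26.6% of X summits (Wilson interval 24.4% to 28.8%), against 21.9%, 24.6% and 20.4% on 2L, 3L and 3R, while 28.4% of X summits stood alone. The coefficient of variation of the spacing was 2.16 on X and 1.54 to 1.68 on the arms. It rested on 1 gap, without which it was 1.67 on X. That gap ran for 847.8 kb, from 21631745 to 22479594, holds 28 protein-coding genes and 1 relaxed peak of the pooled list, and lies in the emptiest bins.

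**Figure D4:**
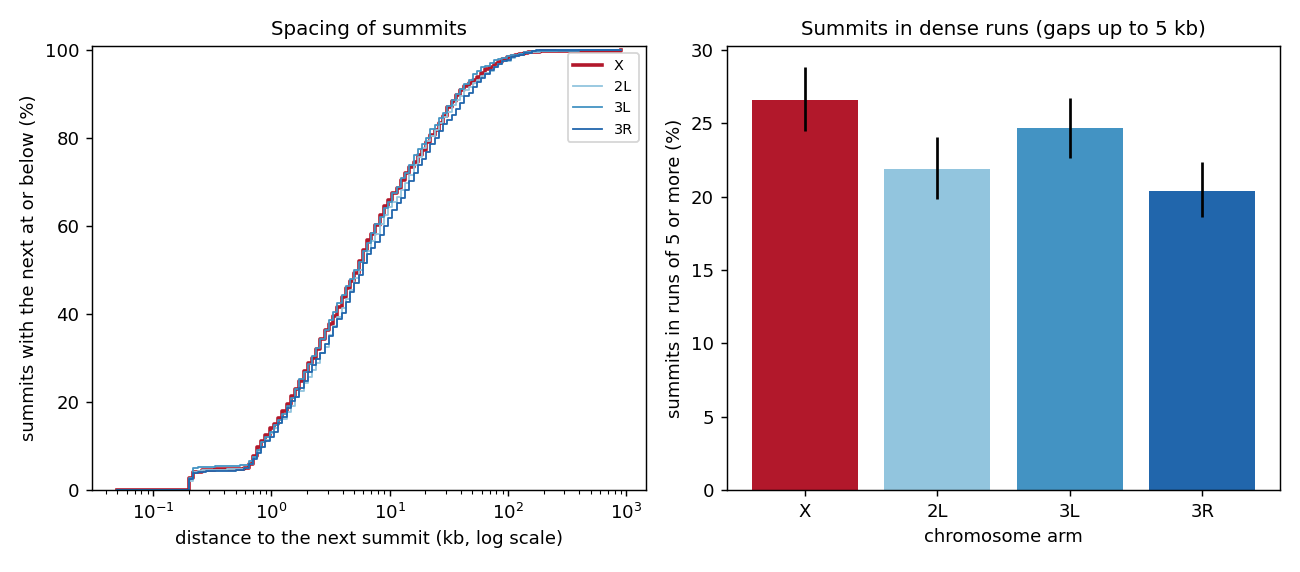
Left, cumulative share of summits whose next summit on the arm lies at or below a distance (kb, log scale), for X and 3 autosomal arms, with nearly coinciding curves. Right, share of summits in runs of 5 or more with gaps up to 5 kb, with 95% Wilson intervals: 26.6% on X against 20.4% to 24.6%.

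The run with most summits on X lay at CHES-1-like, with its last summit upstream of the gene. It held 16 summits in 19.5 kb (7691520 to 7710998) and their median signal value was 1215, against 357 for all X peaks. Runs of 12 summits lay around CG43736 and in Mnt, the partner of Max that opposes Myc. A run of 10 summits in 12.8 kb, with the first at CG2865 and the next upstream of Raf, reached into Raf with a median signal value of 1168. By nearest protein-coding TSS, most summits were assigned to CHES-1-like (17), Tlk (16), CG43658 (15) and the growth regulator Myc (14). With 12 each followed kirre, a cell adhesion gene of myoblast fusion, Mnt and RhoGAP18B. The kirre gene body, which spans 2740384 to 3134532 and overlaps other genes, held 36 summits. Of 677 genes to which X summits were assigned, 351 had 1 summit, and 81 genes with 5 or more accounted for 36.9% of the summits.

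Promoter-bound genes were about as common on X as elsewhere. A gene was called promoter-bound where any of its TSSs had an IDR summit within 1000 bp, which held for 20.1% of all protein-coding genes and for 479 of the 2196 on X, or 21.8% (Wilson interval 20.1% to 23.6%). The autosomal arms had 20.2%, a difference of 1.60 points (Newcombe interval -0.279 to 3.56). In the strongest peaks of replicate 4 alone, without replicate 3, the difference was 2.02 points (0.0626 to 4.05) and was called. The lists that follow were chosen with earlier results of these data known and are described without a test.

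Of 8 genes of sex determination and dosage compensation on X, 1 was promoter-bound (12.5%, against 21.8% of protein-coding X genes). The 8 include the non-coding roX1 and roX2, so the shares are over unlike sets. Sxl, the switch gene that is on in females, had a peak 385 bp from a start site with signal values of 1101 pooled, 780 in replicate 3 and 320 in replicate 4. Its strongest peak, inside the gene, had 1251 pooled. No summit lay in the bodies of sisA, sc, run or upd1, which count X chromosomes in the early embryo, or in mof, the acetyltransferase of the dosage compensation complex. For roX1, a non-coding RNA of that complex, the nearest summit was 4558 bp from its start site. For roX2, the other such RNA, a summit lay 35 bp past the end of the gene and 1402 bp from the nearest start site (473 pooled, 329 in replicate 3, 123 in replicate 4). The only X-linked DM-domain gene, dmrt11E, had a promoter peak 151 bp from its start site, with 692 pooled, 458 in replicate 3 and 229 in replicate 4.

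Of 15 ribosomal protein genes on X, 12 (80%) were promoter-bound, against 21.8% of protein-coding X genes. The strongest were RpS28b (signal value 1040, 804 bp from its start site), RpS10b (769), RpL22 (562), RpS19a (507), RpL17 (450) and RpS5a (350), all modest beside the leading X peaks. Those without were RpL35, RpL36 and RpS14a. RpS14a and RpS14b are near-identical neighbours, so the peak assigned to RpS14b (189) is uncertain between them. Among neuronal genes 7 of 18 (38.9%) were bound, led by elav, dnc, the syntaxin gene Syx4 (1734), the elav relative fne (581), the phospholipase C gene norpA (489) and the adhesion gene Fas2 (265).

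Of 15 chromatin genes 6 (40%) were bound. They were ph-p, ph-d, Tlk (946 at its strongest summit within 1000 bp of a TSS), the BET protein gene fs(1)h (778 pooled, 572 in replicate 3 and no peak in replicate 4), the topoisomerase gene Top1 (590) and Bap60 of the Brahma complex (492). Of 22 signalling genes 5 (22.7%, close to the 21.8% of protein-coding X genes) were bound. They were sgg, the kinase GSK3 of the fly (2413), Raf (1847), the receptor gene N (282), the BMP antagonist gene sog (256) and the polarity gene sdt (227). Of 28 developmental transcription factor genes 4 (14.3%) were, namely the HMG-box gene Dsp1 (2826), CHES-1-like (2304), the nuclear receptor gene usp (355) and peb, a zinc-finger factor (327). Some others had summits inside the gene without a promoter peak. Among them were Hr4, a nuclear receptor, with 11 summits (up to 2414), and ct, a homeodomain factor, with 6 (up to 884). Both are long genes (1941940 to 2007956 and 7608428 to 7678859). The share of all X genes with such summits was not computed.

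The 7-mer CAGTGTA was about as frequent at X summits as at autosomal summits. CAGTGTA on either strand was present in 140 of 1573 windows, each reaching 100 bp to either side of the summit, on X (8.90%, Wilson interval 7.59% to 10.4%) and in 8.56% on the autosomal arms, against 1.86% and 1.81% of windows tiled over the same arms. The difference was 0.337 points (Newcombe interval -1.20 to 2.02). Its share was 9.39% in the strongest 394 X windows and 8.40% in the weakest 393, and its share among the very strongest windows moved with the number taken. It was in 1 of the 20, 1 of the 40 and 9 of the 100 strongest X windows, and in 4 of 63, 14 of 126 and 25 of 314 of the same fractions of autosomal windows. The Tlk window printed above holds it 22 bp from the summit. The Hexo2 window has copies 37 and 67 bp from the summit, and 12 X windows held a pair or more.

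Of 7 further sequences searched on both strands, CACACACA and the TATA box (TATAAAAG) were called different. CACACACA was in 4.07% of X windows and 2.94% of autosomal windows, a difference of 1.13 points (Newcombe interval 0.126 to 2.31), but it was also more frequent in tiled windows of X (5.77% against 3.79%), so that summits were below the rest of the arm in both. The TATA box was in 1.97% of X windows and 3.02% of autosomal windows, a difference of -1.05 points (-1.82 to -0.120), with 1.25% and 1.52% in tiled windows. Neither call held in windows of 50 bp to either side (differences of 0.0253 and -0.640 points) or outside promoters (1.05 and -1.09), whereas CACACACA differed by 4.15 points (2.40 to 6.04) once windows reached 200 bp from the summit. The DM core (ACAATGT or ACATTGT), taken as the site of the family, was in 3.56% of X windows (Wilson interval 2.75% to 4.59%). On the autosomal arms it was in 4.05% (3.53% to 4.63%). The tiled share was 3.17% on X, inside the X interval, and 3.32% on the autosomal arms, below the autosomal interval. GAGAGAGA, DRE (TATCGATA), M1BP motif 1 (GGTCACACT) and CACGTG were not called.

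A comparison of all 7-mers, made after the data were seen, called 9 sequences, of which ACAGTGG was chosen for further description after its values had been seen. Each of 8038 7-mers present in at least 20 windows was compared between X and the autosomal arms, and these 9 (0.112%) had an adjusted p below 0.05 (two-sided Fisher's exact test over windows, Benjamini-Hochberg adjustment), 6 higher and 3 lower on X. AGATCGC had the largest ratio (2.03% of X windows against 0.607%, adjusted p = 0.0072, Fisher's exact test), and ATCGCAT was in 3.69% against 1.78%. Tiled windows of X and of the autosomal arms held AGATCGC in 1.61% and 1.51% and ATCGCAT in 2.99% and 2.67%. For ATTTGCA the shares were 10.2% against 6.82% at summits and 7.89% against 7.98% tiled. ACAGTGG had rank 5 by p and was in 153 X windows (9.73%) and in 6.44% of autosomal windows (7.84%, 5.38% and 6.29% on 2L, 3L and 3R; adjusted p = 0.032, Fisher's exact test). Its share in windows 1000 bp away was 3.31% on X and 2.75% on the autosomal arms, and in tiled windows 2.56% and 2.33%. The NFAT window printed above holds a copy on each side of the summit, and 20 of the 100 strongest X windows held it against 35 of the 314 strongest autosomal ones, while among the strongest 20 and 63 the shares were 20% and 20.6%. It was in 14.2% of the strongest 394 X windows and in 9.16%, 7.89% and 7.63% of the next sets of 393. The call was lost in the 3919 strongest peaks of the list (adjusted p = 0.083, Fisher's exact test) and in replicate 4 alone, without replicate 3 (adjusted p = 0.115), in both of which no 7-mer passed. It was also lost with summits within 200 bp merged (adjusted p = 0.051, Fisher's exact test). The log2 ratio of 0.60 was 0.72, 0.58 and 0.58 in these settings, and adjusted p lay between 0.024 and 0.049 in the other 3 run. The calls of AGATCGC, of ATCGCAT and of ATTTGCA were likewise each lost in 3 of the 6 settings. These tests treat windows as the units, which share their libraries.

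Matches to both 7-mers were densest to the side of the summit, with fewer close to it. On X the centres of CAGTGTA matches were densest 75 to 100 bp from the summit, at 46.4 per 1000 peaks in 25 bp against 7.63 in the first 25 bp, and those of ACAGTGG likewise (56.6 against 5.72). The autosomal arms had 40.5 and 32.2 matches per 1000 peaks at 75 to 100 bp. Matches to the 2 sequences met in 11 X windows, such as that of CG17896, and 282 X windows (17.9%) held at least 1 of them. Of the other 7-mers higher on X, AAAAAAA and CAAAAAA were also more frequent in the windows 1000 bp away (25.9% and 22.0% against 18.7% and 15.0%). The 3 lower on X were the A and T rich ACTTTTA (6.23% against 10.5%), TTTAAAA (20.4% against 26.2%) and AATTTAT (14.6% against 19.2%). All 3 were also less frequent on X in the windows 1000 bp away and in tiled windows. The tiled shares were 5.21% against 6.05%, 10.2% against 11.5% and 9.73% against 11.7% in the same order.

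**Figure D5:**
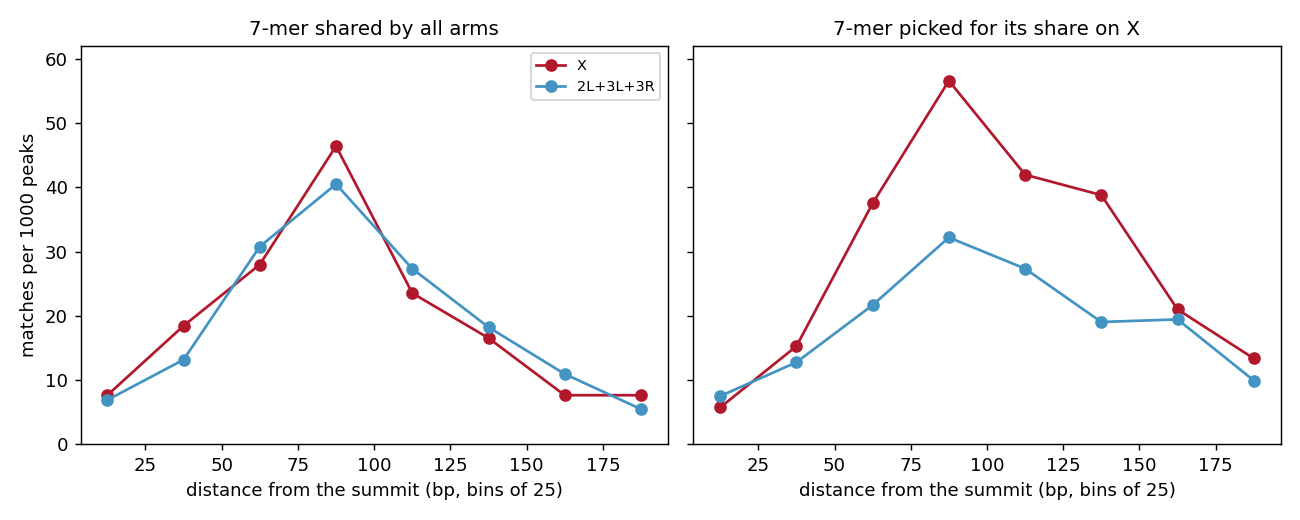
Matches per 1000 peaks by distance of the match centre from the summit (bp, bins of 25), for CAGTGTA, which all arms share (left), and for ACAGTGG, picked for its share on X (right), on X (red) and on 2L, 3L and 3R together (blue). Both rise to 75 to 100 bp, where ACAGTGG reaches 56.6 on X and 32.2 on the autosomal arms.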

How the data were processed

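The authors deposited narrow peak lists in dm6 coordinates: the IDR list, a relaxed list for both replicates pooled and 1 for each replicate. Per the file contents, the deposited values used were the signal value, a score from the authors' peak caller with no stated scale, and a −log10 q value, which was read but not used to rank. Which aligner and caller made them, and in which versions, is not given in the sources used here. The labels give the replicates as biological replicates 3 and 4. X peaks were set against those of 2L, 3L and 3R. Each summit was placed on RefSeq release 6 sequence and on Ensembl release 115 genes, leaving out transposable elements, and given 1 of 7 classes. A promoter (within 500 bp of a TSS) took priority over exons, among which the order was 5′ UTR, coding, 3′ UTR and other, then came introns, and intergenic sequence last. The signal value of a replicate at a peak is that of its peak over the summit whose own summit is nearest, a rule changed from the strongest such peak after values had been seen. Density ratios have exact conditional binomial 95% intervals, shares Wilson intervals and their differences Newcombe intervals. A difference was called where the interval excluded no difference (0, or 1 for a ratio) and X lay on the same side of all 3 arms. Intervals cover counting error over peaks only, and the spread between replicates is given by the lists of each replicate alone. Windows of 100 bp to either side of the summit were searched on both strands for 8 sequences and compared with windows of the same length tiled over the arms. The comparison of all 7-mers was added after the data were seen, and after a first look at 7-mers and longer words in the 100 strongest X windows against their flanks. Flanking windows lay 1000 bp to alternating sides.

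Genes named were those nearest to the 20 strongest X peaks, the strongest peak of each class and of the 5 fullest bins, the 5 genes with most summits (the fifth place was a tie of 3, all named), all genes of the dosage list and up to 6 promoter-bound members of each other list, by signal value. Other names (unbound list members, longest runs, Hr4, ct and the windows printed for their 7-mers) were chosen after their values were seen. The members and lists were chosen with earlier results of these data known. The interval and 7-mer calculations were run on simulated data with independent counts and random sequences. Those data lack the clustering of real summits, so they cannot show whether the intervals are wide enough here. The software was scipy 1.17.1, pandas 2.3.3 and numpy 2.4.6 under Python 3.11.15, with matplotlib 3.10.9 for plots. Alternatives were the 3919 strongest peaks of the IDR list, each replicate alone (its 7838 strongest peaks), summits merged within 200 bp or, added after the data were seen, 250 bp, 2R added to the autosomal arms, bins with at least 20 genes only, and other bins, distances and windows.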

Additional observations from a re-analysis of the deposited data

How the results depend on the processing

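The higher X density per gene, the higher share and density in introns, the lower shares in promoters and intergenic sequence and the higher share in 3′ UTRs kept their direction and their call under every alternative run for them. The density ratio per base was 1.05 in bins with at least 20 genes and not called there. The intergenic density ratio was 0.906 with 2R added and not called, and the promoter density ratio 1.12 and called with promoters of 1000 bp. The ratio of median summits per bin (1.14) has no test. It was 1.29 in the 3919 strongest peaks, 1.18 and 1.14 with summits merged within 200 and 250 bp, 1.08 in bins with at least 20 genes, 1.14 and 1.11 in bins of 250 kb and 1 Mb, and 1.1 to 1.1 with 1 replicate left out. The share with a next summit within 5 kb was called in the 3919 strongest peaks (5.08 points). The difference in promoter-bound share (1.60 points) was 1.69 to 2.02 points with a replicate left out and called without replicate 3. For CACACACA the difference was 4.15 points in windows of 200 bp and was not called with 2R added (0.868), in windows of 50 bp (0.0253), outside promoters (1.05) or without replicate 3 (0.997 to 1.72 with a replicate left out), and for the TATA box in windows of 50 bp (-0.640) or outside promoters (-1.09). Signs turned, with intervals that include 0 unless stated, for CAGTGTA in windows of 200 bp (-0.314), outside promoters (-0.0859) and with summits merged within 250 bp (-0.0537), for GAGAGAGA in windows of 200 bp (1.64, interval above 0), outside promoters (0.282) and without replicate 3 (-0.108 to 0.433 with a replicate left out), for DRE in the 3919 strongest (-0.0573) and with a replicate left out (-0.118 to -0.0745; called at 0.972 in windows of 200 bp), for M1BP motif 1 outside promoters (0.0851), for coding exons in the 3919 strongest (-0.0426) and without replicate 3 (-0.116 to 0.121), and for the top 10% share among promoter summits (-0.371). The count of called 7-mers (9) was 0 in the 3919 strongest and 0 without replicate 3. The cause of these changes was not tested. No paired analysis was possible because the series holds 1 group. The depth of the libraries is unknown, so no value could be set against it.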

Other observations

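Peak width differed between X and the autosomal arms. In the IDR list 424 bp was the most common width, held by 503 X peaks (32.0%, 95% Wilson interval 29.7% to 34.3%) and by 38.6% of autosomal peaks (38.4% to 38.8% by arm), a difference of -6.63 points (Newcombe interval -9.27 to -3.92). On X the median signal value was 215 among peaks of that width and 499 among the others. The median width was 372 bp on X and 412 bp on the autosomal arms. What sets this width is not given in the sources used here.

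Neighbouring summits were never under 199 bp apart on X or on the 3 autosomal arms. On X, 70 gaps were of up to 250 bp, only 10 were longer but within 600 bp, and 145 were longer still but within 1000 bp. Of the X peaks, 40 shared their start and end with another peak of the list. Merging summits within 250 bp left 64.0 per Mb on X and 56.4 on the autosomal arms, a ratio of 1.14 (exact 95% interval 1.07 to 1.20).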
